A study of Mus musculus with 25 samples.

Results

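The anterior-posterior axis of the embryonic mouse palate was examined over the whole shelf, with the compartment each library came from as a covariate. The axis was measured in all 25 RNA-Seq libraries of the series, 13 anterior and 12 posterior. Of 37406 genes in the table, 8608 had an RPKM of at least 10 in at least 6 of the 25 libraries and were tested. For 68 of these, no library of the other end reached 10 RPKM, so they were tested through the end where they were high. Any call or lack of overlap among them was in part set by that choice. Hpse2, Alx1, Msx1, Msx1as, Barx1, Sim2, Dlx1, Cdh18, Pcp4 and Tbx22 were among them, as were Pde5a, Zmat4, Tpd52l1, 9130206I24Rik and 5430421F17Rik. RPKM is the number of reads scaled to transcript length and library size. Each of the differences below is posterior minus anterior, so a positive log2 fold change means a higher level in the posterior palate.

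The palatal shelves grow from the maxillary processes, rise above the tongue, meet and fuse. Their mesenchyme comes mostly from the neural crest. The anterior shelf forms most of the bony hard palate, and the posterior shelf forms the soft palate. Both ends of the shelf are known for different transcription factors in the mesenchyme, which act with Wnt, BMP, FGF and Hedgehog signals passed between mesenchyme and epithelium.

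All libraries were made from laser capture microdissected tissue of wild type CD1 embryos at E14.5, shortly after the shelves had met. Shelves were divided into medial and lateral compartments in some libraries and into oral and nasal compartments in others, at an anterior and a posterior level, so that each pair of compartments is a partition of the same shelf. Each of the 8 groups had 3 libraries, except the anterior nasal group, which had 4. The anterior and the posterior libraries therefore differed only in the level at which the shelf was taken, as far as the labels say, and no treatment or mutation was compared.

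Libraries of a group were described as biological replicates, but the labels do not tie libraries to embryos. Xist, transcribed from the inactive X chromosome of females, was above 10 RPKM together with 4 Y-linked genes above 1 RPKM in 13 libraries, 7 anterior and 6 posterior, so RNA of both sexes was in them. Libraries of different compartments may share an embryo, and p-values may then be too small. The alignment names placed the libraries in 8 sequencing runs, of which 3 held both ends of the palate (6 anterior and 10 posterior libraries). The same names carried the word ERK2 for 2 libraries and Tgfbr2 for 4, each followed by WT, and the labels give all libraries as wild type. Posterior medial replicate 2 stood apart, with 12935 genes above 0 RPKM where the median library had 16897, and with 210 of the tested genes at 0 where the median library had 6. Anterior oral replicate 1 also stood apart, with the lowest implied depth, 6551 genes at 10 RPKM or more where the median library had 7670, and 39 tested genes at 0. Without it 365 genes were called along the axis, where all libraries gave 352. Depth was implied by the steps between low values and lay between about 1640000 and 6560000 reads per library. A single read on a transcript of 2000 bases was then worth 0.0763 to 0.305 RPKM, and counting error at 10 RPKM was 8.73% to 17.5% for such a transcript. The paper states a larger average number of reads per sample, and removed duplicate and multiply aligned reads. The implied depth is an estimate: 917 of 2348 genes of short span met the chosen total, and 1805 of 2686 short genes gave whole lengths.

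The tissue was checked against markers of its cell types. The summed level of 7 markers of palate mesenchyme was 553 to 726 RPKM in the anterior libraries (median 632) and 546 to 808 RPKM in the posterior ones (median 622). Of the 7, Prrx1 (log2 fold change −0.67) and Lhx8 (−0.49) were called higher anteriorly and Col1a1 (0.48) posteriorly. The skeletal muscle regulators Myod1 and Myf5 had a median of 0, and the sum of 8 muscle markers had a median of 28.7 RPKM in the anterior and 31.8 RPKM in the posterior libraries. Smooth muscle and pericyte markers were higher anteriorly, with a median sum of 114 RPKM (54.4 to 186) against 52.2 RPKM (27.2 to 117). Mast cell markers summed to a median of 39.1 RPKM anteriorly (3.36 to 127) and 7.77 RPKM posteriorly (1.16 to 62.0). Epithelial sums were 51.2 (31.8 to 120) and 27.0 RPKM (15.1 to 103), and red cell sums 582 (454 to 864) and 913 RPKM (422 to 1180). Macrophage sums were 73.9 (48.9 to 127) and 107 RPKM (62.2 to 162). Chondrocyte sums were 57.4 (19.7 to 109) and 79.2 RPKM (46.6 to 143), and osteoblast sums 14.2 (1.75 to 138) and 18.7 RPKM (6.7 to 329). These ranges overlapped between the ends. Of the smooth muscle and pericyte markers, Actg2, Abcc9 and Rgs5 were called higher anteriorly. Among the tested markers of mast cells, epithelium, red cells, macrophages, chondrocytes and osteoblasts, only Col2a1, of chondrocytes, was called. Only 2 of 4 mast cell, 2 of 7 epithelial, 2 of 5 chondrocyte and 2 of 5 osteoblast markers were tested, so the rest could not be called. Endothelial sums were alike at 135 and 138 RPKM, as were those of neurons (20.4 and 20.1 RPKM), while those of Schwann cells had medians of 15.2 and 11.0 RPKM. In tissue samples such as these, fewer cells of a type and less RNA per cell cannot be told apart.

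Of the 8608 genes, 352 differed along the axis at an adjusted p under 0.05 (4.09%). They split evenly, with 177 higher in the posterior palate (2.06%) and 175 higher in the anterior palate (2.03%). When each library was centred on its median, the split was 140 higher posteriorly and 229 higher anteriorly. A fold change over 2 was reached by 133 genes (1.55%), 62 of them higher posteriorly (0.72%) and 71 higher anteriorly (0.825%). In 23 genes (0.267%) no anterior library overlapped any posterior one, 14 of them higher in the anterior (0.163%) and 9 in the posterior palate (0.105%). Many of the 23, Hpse2, Alx1, Barx1, Sim2 and Pde5a among them, were tested through 1 end alone, which in part set their separation. The largest anterior folds were those of Hpse2, Alx1, the Msx1 locus (Msx1 and its antisense Msx1as, 2 of the calls) and Shox2, and the 5 largest posterior folds were those of Pcp4, Sim2, Barx1, Cdh18 and Meox2. At an unadjusted p under 0.05, 1335 genes (15.5%) differed. Fold changes are on the log2(RPKM + 0.1) scale, which understates the change of genes with low values. Called genes are those with an adjusted p under 0.05 from limma, adjusted over all 8608 genes.

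The same axis was measured once in medial and lateral tissue and once in oral and nasal tissue, with no library in common. Medial and lateral libraries gave 97 called genes (1.13%) and oral and nasal libraries gave 183 (2.13%). The overlap was 46 genes, 47.4% of the first set and 25.1% of the second. All 46 had the same sign in both, 19 higher posteriorly and 27 higher anteriorly, and 21 of the 23 genes without overlap were among them. Since those 23 separate over all 25 libraries, they also separate within each set, so the 21 is largely set by their choice. Among all tested genes, 3911 (45.4%) had the same sign in both. The count of 46 fell to 29 and 27 without anterior medial replicate 2 or 3, to 29, 27 and 27 without anterior lateral replicate 1, 2 or 3, and to 28 without posterior lateral replicate 3, and it was 73 without posterior medial replicate 2. Of the 352 called genes, 321 (91.2%) had the same sign in each of the 4 compartments, a share that their choice by the average over these compartments largely sets. A difference of the axis between compartments was called in 27 genes (0.314%), with 453 (5.26%) at an unadjusted p under 0.05.

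The number of calls depended on sequencing run and on single libraries. With run in the model 155 genes were called (1.80%), 134 of them among the 352, and within the 3 runs that held both ends 101 were called. All 352 genes had the same sign in both fits, which reuse the libraries that chose them. Of the 23 genes without overlap, all 23 were called with run in the model and 22 within the shared runs, the exception being Zmat4 (adjusted p = 0.0845). The 23 were likewise chosen on these same libraries. Without posterior medial replicate 2 the count rose to 532. Without that library and the 2 posterior libraries that were alone in their runs, a set chosen after seeing the data, 688 genes were called, 411 higher posteriorly and 277 higher anteriorly, and 323 of the 352 were among them.

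**Figure D1:**
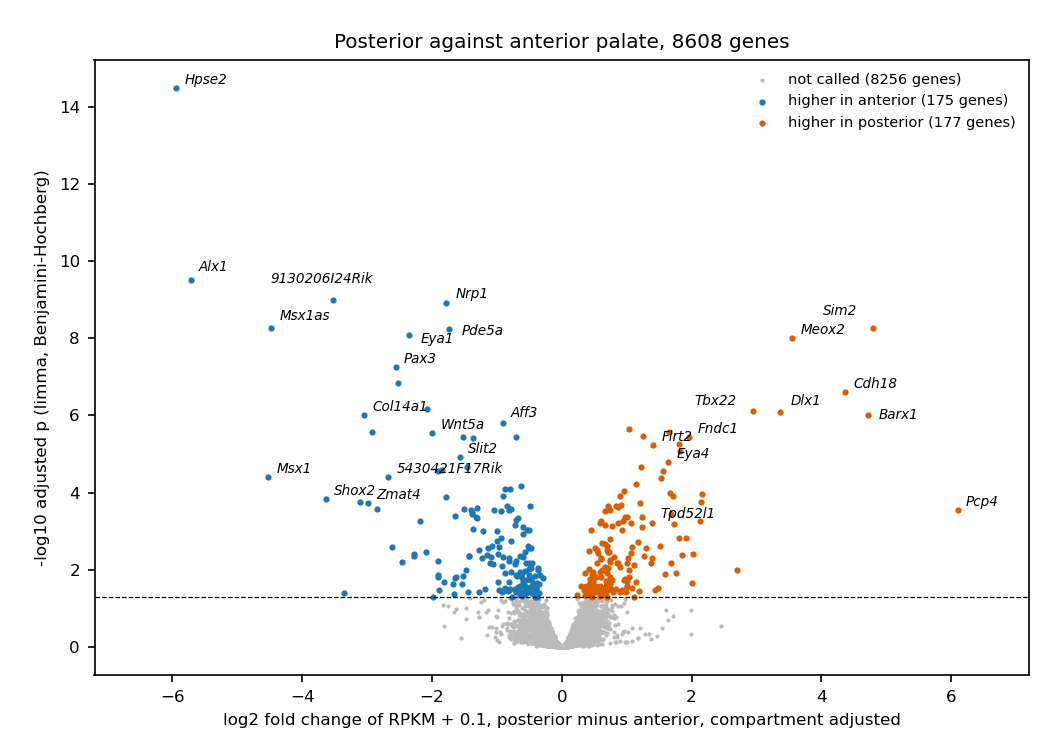
Posterior minus anterior log2 fold change (x axis) against −log10 of the adjusted p (y axis) for 8608 genes, with the dashed line at an adjusted p of 0.05. Blue points are the 175 genes higher in the anterior palate and orange points the 177 higher in the posterior palate, and the labelled genes include Hpse2 at −5.94 and Sim2 at 4.79.

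Transcription regulators of the homeobox and paired family carried several of the largest differences. This family binds DNA through the homeodomain and sets the identity of regions in many embryonic tissues. Of 30 tested members, 7 were higher in the posterior and 6 in the anterior palate (43.3%, against 4.09% of all genes), and 6 did not overlap between the ends. Their median log2 fold change was −0.07, against 0.031 over all genes. None of 15 Hox genes reached the expression minimum. The lists of genes by function, this family among them, were written with earlier results of these data known. Their shares of calls were in part set by that choice. Each count of calls in a list below is to be read beside the 4.09% called over all genes.

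Alx1, an aristaless-like homeobox gene of frontonasal and maxillary mesenchyme, was at 39.0 to 99.985 RPKM in the anterior libraries (median 70.0) and at 0 to 5.41 RPKM in the posterior ones (median 1.2). Its log2 fold change was −5.72 (SE 0.36, adjusted p = 3.06e-10), and the lowest anterior library was above each posterior library. Shox2, a short stature homeobox gene required in the anterior palate, was at 98.7 to 156 RPKM anteriorly (median 127) and at 0.0572 to 59.6 RPKM posteriorly (median 14.1), a log2 fold change of −3.64 (SE 0.55, adjusted p = 0.000149). Posterior levels of Shox2 were widely spread, whereas anterior levels lay close together. Pax3, a paired box gene of the neural crest, was at 23.4 to 54.5 RPKM anteriorly (median 44.4) and at 2.26 to 19.7 RPKM posteriorly (median 7.61), a log2 fold change of −2.56 (SE 0.23).

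Msx1, a muscle segment homeobox gene needed for palatal growth, was at 0 to 18.7 RPKM anteriorly (median 10.01) and at 0 to 1.02 RPKM posteriorly (median 0.171). The log2 fold change was −4.52 (SE 0.62, adjusted p = 3.89e-05), and 1 anterior nasal library was at 0. The call was lost when limma used a mean-variance trend (adjusted p = 0.0782). The antisense transcript Msx1as, which overlaps Msx1, did not overlap between the ends, with 7.24 to 41.1 RPKM anteriorly and 0 to 1.69 RPKM posteriorly (log2 fold change −4.48, SE 0.34). The strand of the reads is not stated, so reads of Msx1 and Msx1as cannot be told apart. They are given here as 1 difference at this locus.

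On the posterior side, Barx1, a BarH-like homeobox gene, was at 48.9 to 123 RPKM (median 81.1) against 0 to 8.41 RPKM anteriorly (median 4.05). The log2 fold change was 4.72 (SE 0.50, adjusted p = 9.79e-07). Meox2, a mesenchyme homeobox gene, was at 27.2 to 214 RPKM posteriorly (median 97.9) and at 3.96 to 12.2 RPKM anteriorly (median 6.51), a log2 fold change of 3.55 (SE 0.29, adjusted p = 9.83e-09). Dlx1, a distal-less homeobox gene, was at 7.99 to 37.8 RPKM posteriorly (median 13.8) and at 0.157 to 5.31 RPKM anteriorly (median 1.14), with a log2 fold change of 3.37 (SE 0.35). None of these 3 genes overlapped between the ends. Gsc, the goosecoid homeobox gene, had a log2 fold change of 2.01 (SE 0.51) but overlapped, with 6.31 to 32.2 RPKM posteriorly and 0 to 24.8 RPKM anteriorly, and its call was lost with run in the model (adjusted p = 0.46). Irx5, of the Iroquois group, rose from a median of 2.79 to 10.8 RPKM (log2 fold change 1.49, SE 0.39) and lost its call in 8 of 25 fits that each left out 1 library (adjusted p up to 0.0591, without anterior lateral replicate 2).

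Other members of the family did not pass. Pax9 was at a median of 88.8 RPKM anteriorly and 94.6 RPKM posteriorly (log2 fold change 0.08, adjusted p = 0.876). Meis2 and Lhx6 had log2 fold changes of 0.06 and 0.03 (adjusted p = 0.892 and 0.959). The close relative of Dlx1, Dlx2, was below the expression minimum, at a median of 0.537 RPKM anteriorly and 5.14 RPKM posteriorly.

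**Figure D2:**
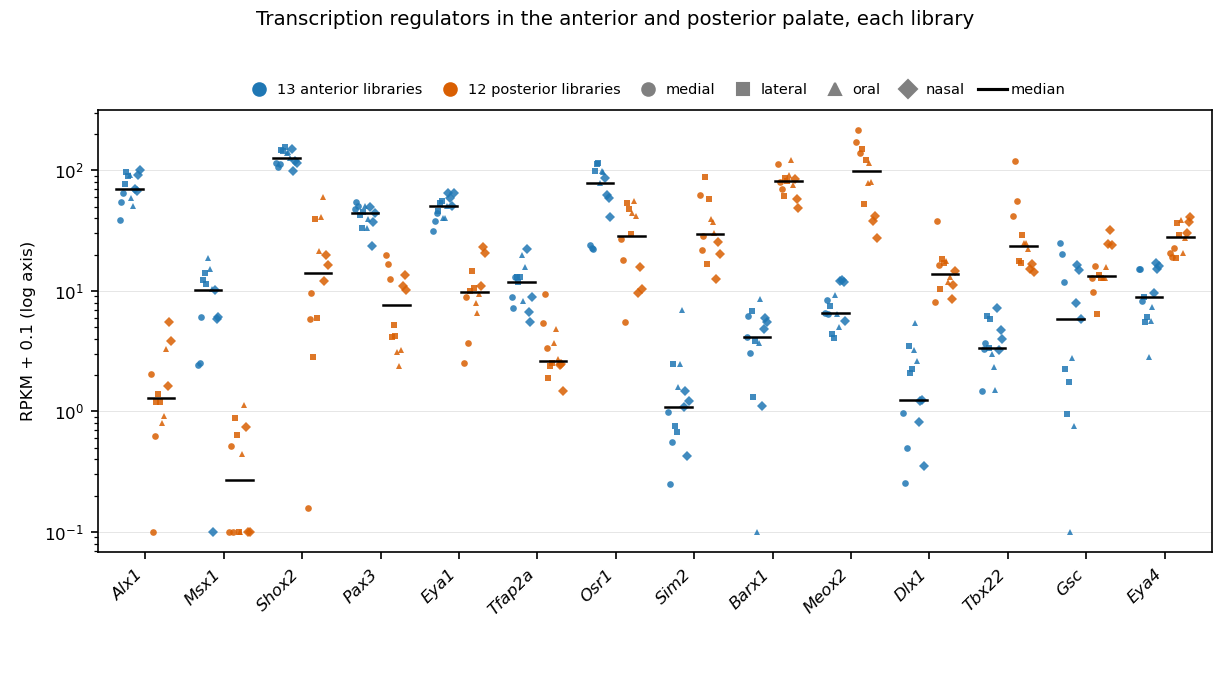
RPKM + 0.1 on a log axis for 14 transcription regulators in each library, with 13 anterior libraries in blue, 12 posterior libraries in orange, marker shape for the compartment and a black bar for the median. Alx1, Shox2, Pax3 and Eya1 separate with the anterior libraries above, Sim2, Barx1, Meox2, Dlx1, Tbx22 and Eya4 with the posterior libraries above, and Msx1, Tfap2a, Osr1 and Gsc overlap.

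The starts of 5 of these genes are shown so that the sequence before them can be set beside their opposite levels, Shox2 and Prrx1 from the anterior side and Barx1, Meox2 and Six2 from the posterior side. Prrx1 (log2 fold change −0.67) and Six2 (0.97) were chosen for the motif they hold. Each run is the 250 bases before the transcription start, from RefSeq on GRCm38.p6, 5′ to 3′ on the strand of the gene, and these coordinates are not those of the deposited table, which was made on mm9. Capitals mark TAATTA, a core bound by many homeodomains, in Prrx1 and the palindrome TAATNNNATTA, a paired-type homeodomain site, in Six2. Both were searched on both strands. The second can contain the first, but does not in the Six2 site shown.
Shox2 (chr3:66981772-66982021, minus strand): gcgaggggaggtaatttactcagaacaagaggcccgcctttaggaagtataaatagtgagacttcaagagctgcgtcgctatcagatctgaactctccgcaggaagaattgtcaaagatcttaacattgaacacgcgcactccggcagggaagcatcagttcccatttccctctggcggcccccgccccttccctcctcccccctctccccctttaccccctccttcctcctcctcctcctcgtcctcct
Prrx1 (chr1:163313651-163313900, minus strand): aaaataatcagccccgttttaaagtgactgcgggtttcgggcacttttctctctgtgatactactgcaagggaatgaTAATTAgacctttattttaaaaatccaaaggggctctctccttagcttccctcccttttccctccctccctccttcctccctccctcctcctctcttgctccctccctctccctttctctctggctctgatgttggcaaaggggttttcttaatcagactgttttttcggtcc
Barx1 (chr13:48662786-48663035, plus strand): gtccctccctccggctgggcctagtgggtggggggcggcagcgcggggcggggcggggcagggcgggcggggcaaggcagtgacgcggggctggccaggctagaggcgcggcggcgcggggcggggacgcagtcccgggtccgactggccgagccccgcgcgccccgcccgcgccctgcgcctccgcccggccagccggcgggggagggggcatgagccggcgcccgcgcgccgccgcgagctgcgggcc
Meox2 (chr12:37108290-37108539, plus strand): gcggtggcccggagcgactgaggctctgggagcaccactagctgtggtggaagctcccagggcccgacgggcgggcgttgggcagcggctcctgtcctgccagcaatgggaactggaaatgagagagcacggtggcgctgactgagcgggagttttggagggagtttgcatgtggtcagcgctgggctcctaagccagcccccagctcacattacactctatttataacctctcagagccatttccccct
Six2 (chr17:85688255-85688504, minus strand): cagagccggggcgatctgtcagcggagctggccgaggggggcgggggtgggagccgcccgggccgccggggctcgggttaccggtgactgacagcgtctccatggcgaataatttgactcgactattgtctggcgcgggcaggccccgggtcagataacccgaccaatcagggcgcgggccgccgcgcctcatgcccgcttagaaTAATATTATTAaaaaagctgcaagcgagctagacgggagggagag
TAATTA was in 4.84% and TAATNNNATTA in 0.463% of 32851 promoters of this length. Of the 13 called members of the family, 10 had an entry, and 1 of these held each motif. The Barx1 promoter had 40 CpG dinucleotides and 85.6% G + C, against medians of 6 and 52.4% over all promoters, and more CpG than 98.6% of them. On the anterior side Prrx1 had 4 CpG and Shox2 11, and on the posterior side Meox2 had 12 and Six2 26. These 5 promoters were picked, and nothing is read from their order.

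Regulators outside the homeobox family also divided. Sim2, a single-minded bHLH-PAS factor, was at 12.4 to 87.9 RPKM posteriorly (median 29.3) and at 0.150 to 6.86 RPKM anteriorly (median 0.98). Its log2 fold change was 4.79 (SE 0.37, adjusted p = 5.38e-09), and the ends did not overlap. Tbx22, the T-box gene of X-linked cleft palate, was at 14.1 to 120 RPKM posteriorly (median 23.5) and at 1.38 to 7.06 RPKM anteriorly (median 3.26), a log2 fold change of 2.94 (SE 0.30, adjusted p = 7.61e-07). The pair of Eya genes, coactivators of sine oculis homeobox factors, went in opposite directions. Eya1 was at 31.5 to 65.3 RPKM anteriorly (median 50.9) and 2.40 to 23.1 RPKM posteriorly (median 9.65; log2 fold change −2.36, SE 0.19). Eya4 was at 18.6 to 40.6 RPKM posteriorly (median 28.0) and 2.74 to 17.0 RPKM anteriorly (median 8.73; log2 fold change 1.64, SE 0.21). Neither Eya gene overlapped between the ends.

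Among bHLH, Eya, Sox and other palate regulators, 14 of 38 tested were called (36.8%), 9 higher anteriorly and 5 posteriorly, with a median log2 fold change of 0.07. Tfap2a, the AP-2 factor of the neural crest and ectoderm, fell from a median of 11.8 RPKM anteriorly to 2.54 RPKM posteriorly (log2 fold change −1.84, SE 0.24). Osr1, the odd-skipped partner of Osr2, fell from 78.7 to 28.2 RPKM (log2 fold change −1.39, SE 0.23). Npas3, a bHLH-PAS factor, rose from 4.90 to 13.7 RPKM (log2 fold change 1.18, SE 0.23). Sall3, a spalt zinc finger gene, was also called (−1.66, adjusted p = 0.0424) but lost its call in 18 of 25 fits without 1 library, with an adjusted p of up to 0.095 without posterior nasal replicate 3, and with run in the model (adjusted p = 0.0777). Osr2 (−0.28), Twist1 (0.06), Mn1 (0.10) and Sox9 (0.53), all central to palate or skeletal mesenchyme, did not pass, with adjusted p = 0.716, 0.922, 0.806 and 0.252. Of 12 tested T-box, forkhead and Gata genes, Tbx22 was higher posteriorly and Gata2 anteriorly (medians 8.56 and 2.89 RPKM, log2 fold change −1.54, SE 0.39, adjusted p with run in the model 0.0875), and the median was −0.19. Tbx15 had a log2 fold change of −1.47 and an adjusted p of 0.0952.

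**Figure D3:**
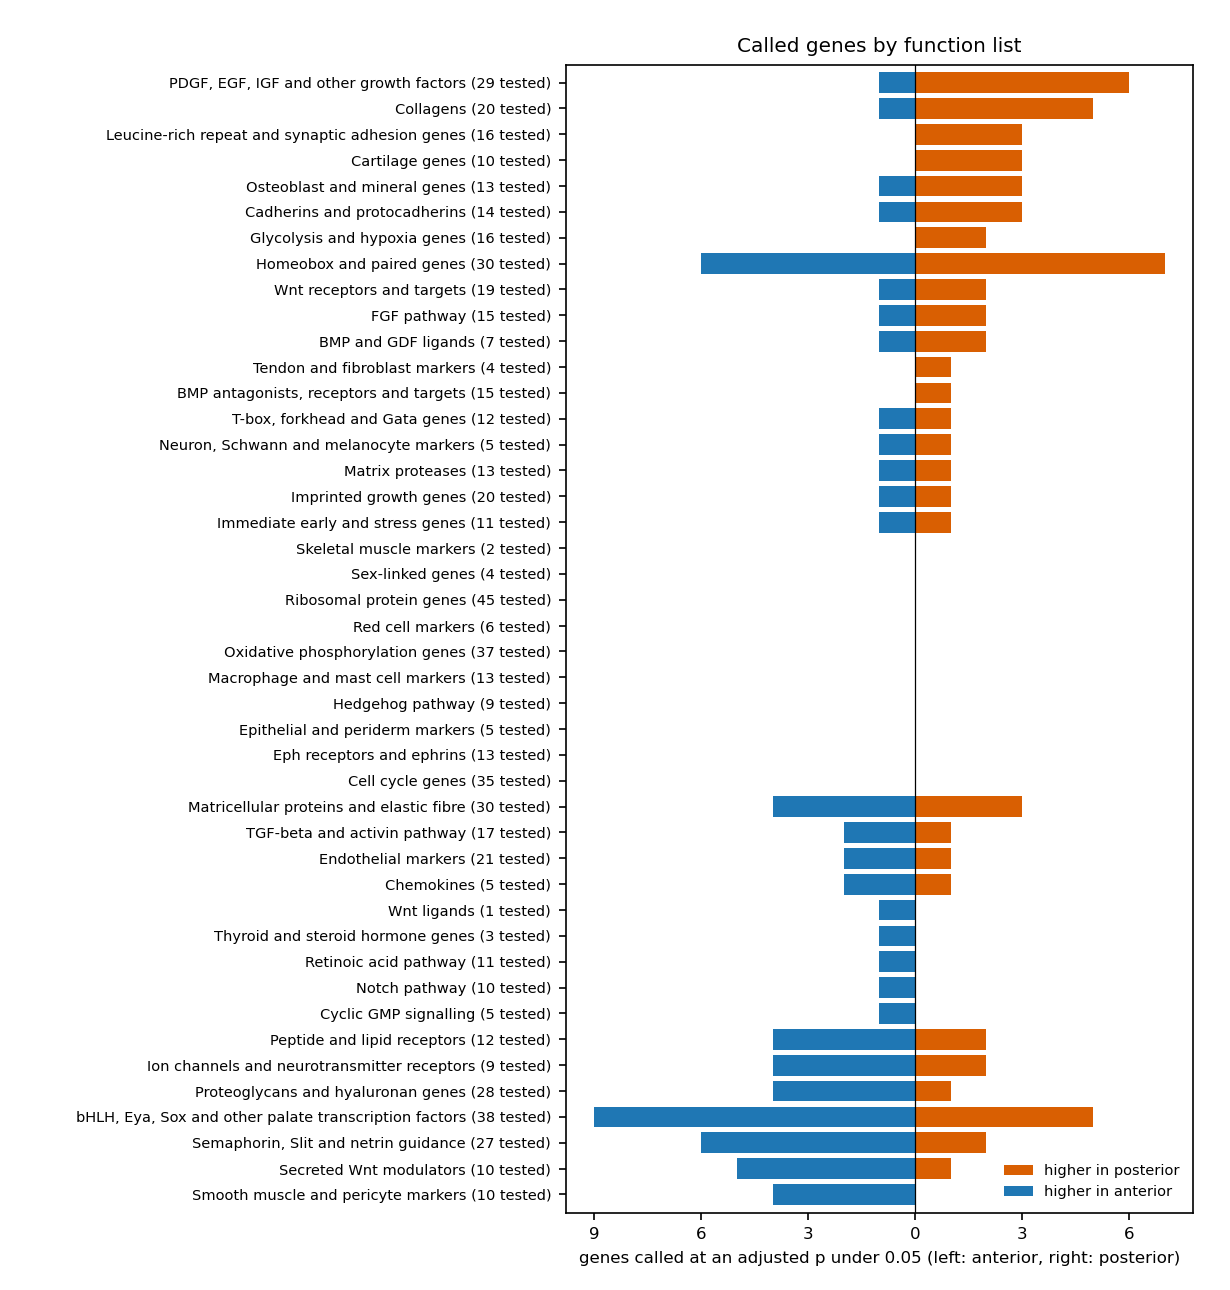
Number of genes called at an adjusted p under 0.05 in each of 44 function lists with a tested member, with bars to the right for genes higher in the posterior palate and to the left for genes higher in the anterior palate, ordered by the difference of the counts. Growth factors and collagens lie at the posterior extreme (6 and 5 genes higher posteriorly), 4 lists with 4 more anterior than posterior calls at the anterior extreme (bHLH, Eya and Sox regulators, guidance genes, secreted Wnt modulators and smooth muscle markers), and 10 lists have no call.

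Wnt signalling differed in its ligand and its secreted modulators. Wnt5a, a ligand that acts mostly without beta-catenin and guides cell migration in the palate, was the one Wnt gene of 19 that reached the minimum. Its level was 41.4 to 102 RPKM anteriorly (median 75.4) and 4.30 to 28.2 RPKM posteriorly (median 23.4). The log2 fold change was −2.0 (SE 0.23, adjusted p = 2.85e-06) and the ends did not overlap.

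Of 10 tested secreted Wnt modulators, 5 were higher anteriorly and 1 posteriorly (60%, median log2 fold change −0.46). The anterior ones were inhibitors and an agonist. Sfrp4, a decoy receptor, fell from a median of 18.5 RPKM to 3.34 RPKM (log2 fold change −2.27, SE 0.47). Wif1, a Wnt inhibitory factor, fell from 20.9 to 6.38 RPKM (−1.64, SE 0.40), and Dkk2, a Dickkopf inhibitor of Lrp coreceptors, from 41.8 to 13.5 RPKM (−1.40, SE 0.23). The R-spondins, which raise the level of Frizzled receptors, were divided between the ends. Rspo1 was at 55.2 to 137 RPKM anteriorly (median 90.7) and 1.16 to 80.3 RPKM posteriorly (median 43.3; log2 fold change −1.45, SE 0.40). Rspo3 was at 8.68 to 54.2 RPKM posteriorly (median 25.1) and 3.38 to 14.9 RPKM anteriorly (median 7.94; log2 fold change 1.71, SE 0.25). Both pairs of ranges overlapped. The call of Rspo1 was lost in 13 of 25 fits without 1 library, with an adjusted p of up to 0.0683 without anterior medial replicate 2. With run in the model, Sfrp4, Wif1 and Dkk2 had adjusted p = 0.0748, 0.0559 and 0.315, and Rspo1 and Rspo3 had adjusted p = 0.0279 and 0.0414. Sfrp2, the most abundant member at medians of 303 and 446 RPKM, did not pass (0.41, adjusted p = 0.488).

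Of 19 tested Wnt receptors and targets, 2 were higher posteriorly and 1 anteriorly (15.8%, against 4.09% of all genes), with a median of 0.02. Tnfrsf19, a TNF receptor family member that responds to Wnt, rose from a median of 8.29 RPKM to 28.1 RPKM (log2 fold change 1.65, SE 0.19, adjusted p = 2.65e-06). Fzd1, a Frizzled receptor, rose from 27.3 to 44.6 RPKM (0.75, SE 0.12). Lgr4, an R-spondin receptor, fell from 33.6 to 19.5 RPKM (−0.70, SE 0.12) and had an adjusted p of 0.0741 with run in the model. Axin2, a feedback target of beta-catenin, was at medians of 20.7 and 20.2 RPKM (0.21, adjusted p = 0.49).

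In BMP signalling, calls were made mostly among ligands. Of 7 tested BMP and GDF ligands, Gdf10 and Bmp3 were higher posteriorly and Bmp2 anteriorly (42.9%, median 0.18). Gdf10, a divergent member close to Bmp3, was at 7.02 to 53.5 RPKM posteriorly (median 15.1) and 0.531 to 13.5 RPKM anteriorly (median 4.80; log2 fold change 2.15, SE 0.33). Bmp3, which counteracts osteogenic BMPs, was at 9.5 to 66.6 RPKM posteriorly (median 23.9) and 1.28 to 22.9 RPKM anteriorly (median 8.74; log2 fold change 1.76, SE 0.41). Bmp2, an osteogenic ligand, was at 14.4 to 36.1 RPKM anteriorly (median 27.3) and 10.9 to 19.7 RPKM posteriorly (median 14.0; log2 fold change −0.72, SE 0.13, adjusted p with run in the model 0.0524). Bmp4 did not pass, at medians of 26.1 and 39.1 RPKM (0.52, adjusted p = 0.534). Of 15 tested antagonists, receptors and targets, 1 was called, higher posteriorly (6.67%, against 4.09% of all genes), and the median was −0.06.

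In the TGF-beta and activin pathway, 3 of 17 tested genes were called (17.6%, against 4.09% of all genes, median −0.01). Inhba, the activin A subunit, fell from a median of 41.2 RPKM to 19.5 RPKM (log2 fold change −1.23, SE 0.26). Tgfbi, a matrix protein induced by TGF-beta, rose from 33.0 to 48.7 RPKM (0.69, SE 0.14, adjusted p with run in the model 0.115). Tgfbr3, the coreceptor betaglycan, had a log2 fold change of −0.92 and lost its call in 16 of 25 fits without 1 library (adjusted p up to 0.0789, without posterior nasal replicate 2) and with run in the model (adjusted p = 0.101). Tgfb3, the ligand required for fusion, was at medians of 35.7 and 25.8 RPKM (−0.13, adjusted p = 0.787).

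In the FGF pathway, 3 of 15 tested genes were called (20%, against 4.09% of all genes, median −0.21). Flrt2, a transmembrane protein that binds FGF receptors and Unc5, was at 38.5 to 138 RPKM posteriorly (median 84.4) and at 21.7 to 37.5 RPKM anteriorly (median 28.1), without overlap (log2 fold change 1.41, SE 0.17, adjusted p = 5.76e-06). Its relative Flrt3 rose from a median of 25.6 to 37.9 RPKM (0.49, SE 0.13, adjusted p with run in the model 0.402) and lost its call without anterior lateral replicate 2 (adjusted p = 0.0549). Spry2, a feedback inhibitor of FGF signalling, fell from 16.5 to 7.59 RPKM (−1.09, SE 0.23). Fgf18 was at 10.4 to 34.5 RPKM anteriorly and 0 to 93.6 RPKM posteriorly, and its log2 fold change of −1.75 did not pass (adjusted p = 0.0858). Fgf10 was below the minimum, at medians of 4.87 and 3.96 RPKM.

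Hedgehog genes did not differ detectably, with 0 of 9 tested genes called and a median of −0.04. Ptch1, the receptor and target, was at medians of 64.7 and 59.0 RPKM (log2 fold change −0.30, adjusted p = 0.465), and Gli1, a target, at 10.5 and 16.8 RPKM (0.53, adjusted p = 0.528). Without the 3 posterior libraries named above, 2 of the 9 were called, both higher anteriorly, where 277 of all 8608 genes were. In the Notch list 1 of 10 was called (10%, against 4.09% of all genes, median −0.23). It was the target Heyl, which fell from a median of 13.6 to 4.46 RPKM (−1.68, SE 0.43). In the retinoic acid list 1 of 11 was called (9.09%, median −0.10). It was the degrading enzyme Cyp26b1, which fell from 33.4 to 19.1 RPKM (−0.98, SE 0.24, adjusted p with run in the model 0.059). Aldh1a2, which makes retinoic acid, had a log2 fold change of −1.20 and an adjusted p of 0.0606. Of 3 thyroid and steroid hormone genes (median −0.09), Dio3, the imprinted deiodinase that inactivates thyroid hormone, fell from 16.6 to 5.93 RPKM (−1.82, SE 0.46, adjusted p with run in the model 0.0951).

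Growth factors and their receptors were more often called posteriorly. Of 29 tested PDGF, EGF, IGF and other growth factor genes, 6 were higher posteriorly and 1 anteriorly (24.1%, median 0.11). Pdgfc, a ligand of Pdgfra required for palate closure, was at 5.57 to 15.1 RPKM posteriorly (median 9.73) and 2.43 to 5.61 RPKM anteriorly (median 4.62), so that the ranges touched by less than 0.1 RPKM (log2 fold change 1.22, SE 0.16, adjusted p = 2.18e-05). Its receptor Pdgfra did not pass, at medians of 49.9 and 51.1 RPKM (0.08, adjusted p = 0.795). Cntfr, the ciliary neurotrophic factor receptor, rose from a median of 2.91 to 13.9 RPKM (2.13, SE 0.37, adjusted p with run in the model 0.252), Clec11a, an osteogenic lectin, from 5.33 to 16.6 RPKM (1.56, SE 0.21), and Igfbp5, an IGF binding protein, from 61.4 to 127 RPKM (1.07, SE 0.18). Ntrk3, the neurotrophin-3 receptor, was the one gene called anteriorly and fell from 20.6 to 4.98 RPKM (−2.09, SE 0.42).

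Of 5 tested chemokine genes (median 0.57), Cxcl12, a ligand that guides neural crest and vessel cells, fell from a median of 57.0 to 30 RPKM (log2 fold change −1.0, SE 0.19), and its scavenger receptor Cxcr7 rose from 12 to 16.9 RPKM (0.57, SE 0.15). Cxcr7 lost its call in 6 of 25 fits without 1 library (adjusted p up to 0.0569, without anterior medial replicate 3) and with run in the model (adjusted p = 0.325). The atypical receptor Darc, which marks venules, fell from 27.8 to 10.1 RPKM (−2.18, SE 0.37).

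**Figure D4:**
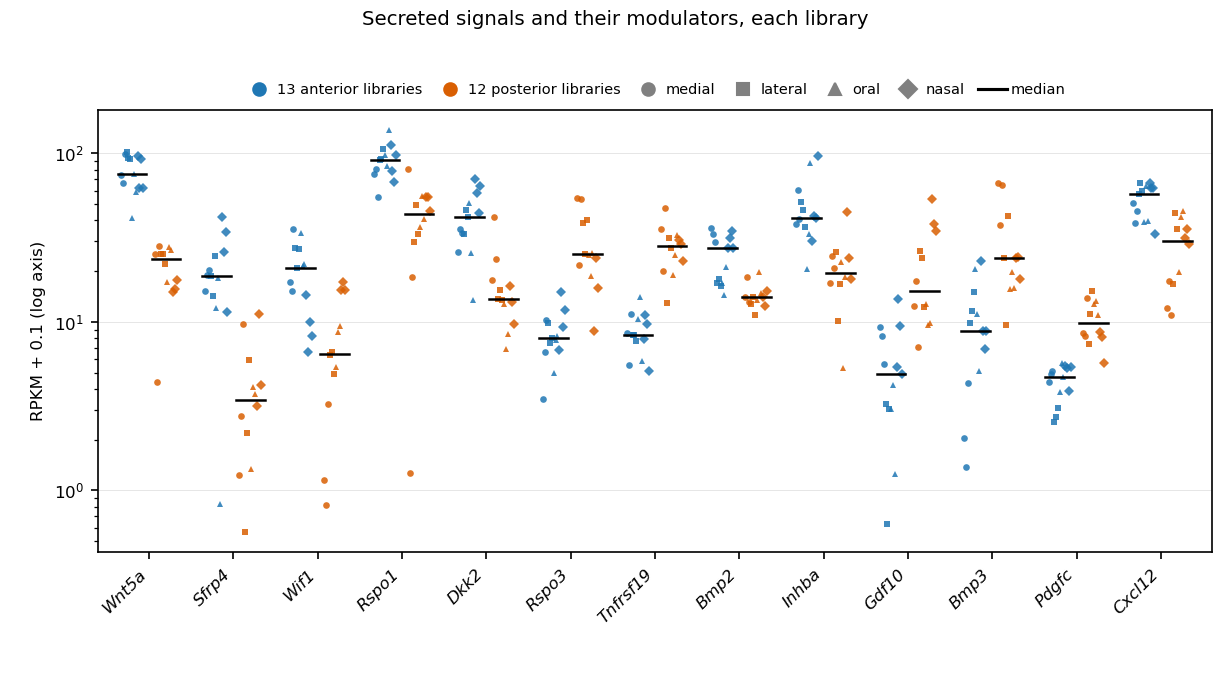
RPKM + 0.1 on a log axis for 13 ligands, receptors and modulators in each library, with anterior libraries in blue, posterior libraries in orange, marker shape for the compartment and a black bar for the median. Wnt5a is the gene whose ends do not overlap, with each anterior library above 41 RPKM and each posterior library below 29 RPKM, while Rspo1 and Rspo3 shift in opposite directions with overlap.

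Guidance cues were more often called anteriorly. Of 27 tested semaphorin, Slit and netrin genes, 6 were higher anteriorly and 2 posteriorly (29.6%, median −0.12). Nrp1, the receptor for Sema3a and VEGF, was at 21.7 to 56.5 RPKM anteriorly (median 35.7) and 5.63 to 19 RPKM posteriorly (median 12.3), without overlap (log2 fold change −1.79, SE 0.13, adjusted p = 1.19e-09). Slit2, a ligand of Robo receptors, was at 11.0 to 40.3 RPKM anteriorly (median 27.2) and 4.75 to 10.6 RPKM posteriorly (median 8.02), also without overlap (−1.57, SE 0.20). The Mir218-1 hairpin lies within Slit2, and its reads cannot be told apart from those of Slit2. Nell2, a ligand of Robo3, fell from a median of 21.5 to 3.18 RPKM (−2.61, SE 0.51), and Sema3e from 19.5 to 8.46 RPKM (−1.19, SE 0.32, adjusted p with run in the model 0.192). Sema3e also lost its call in 6 of 25 fits without 1 library (adjusted p up to 0.0597, without anterior medial replicate 1). On the posterior side Sema3d rose from 9.31 to 21.3 RPKM (1.09, SE 0.21) and Sema6a from 27.0 to 43.7 RPKM (0.73, SE 0.15). None of 13 tested Eph receptors and ephrins was called (median 0.00). Without the 3 posterior libraries 1 of the 13 was called posteriorly, where 411 of all 8608 genes were.

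Adhesion genes were among the posterior differences. Cdh18, a type II cadherin, was at 1.63 to 45.5 RPKM posteriorly (median 16.4) and 0.0999 to 4.14 RPKM anteriorly (median 0.497; log2 fold change 4.37, SE 0.42, adjusted p = 2.46e-07). Cdh20, another type II cadherin, rose from a median of 1.67 to 19.9 RPKM (2.70, SE 0.62), but its posterior nasal libraries were at 0.398 to 3.946 RPKM, within the anterior range. Pcdh19, a protocadherin, rose from 11.4 to 18.3 RPKM (0.61, SE 0.16) but lost its call in 6 of 25 fits without 1 library (adjusted p up to 0.0607, without posterior nasal replicate 2), and Cdh11, the cadherin of mesenchyme, fell from 133 to 92.3 RPKM (−0.50, SE 0.10, adjusted p with run in the model 0.125). These were the 4 calls among 14 tested cadherins (28.6%, median 0.20). Of 16 tested leucine-rich repeat and synaptic adhesion genes (median 0.04), 3 were higher posteriorly, Lrrtm1 (medians 3.43 and 21.9 RPKM), Lrrc3b (2.19 and 10.4 RPKM) and Sorcs3 (2.54 and 10.4 RPKM). Of these, Lrrtm1 and Lrrc3b were not called with run in the model (adjusted p = 0.127 and 0.148). Their posterior nasal libraries were near anterior levels, at 3.185 to 4.17 RPKM for Lrrtm1 and 1.70 to 3.47 RPKM for Lrrc3b, so the ends overlapped.

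Receptors and channels were called in both directions. Of 12 tested peptide and lipid receptors, 4 were higher anteriorly and 2 posteriorly (50%, median −0.12). Agtr2, the angiotensin II type 2 receptor, was the most abundant of them, at 86.0 to 294 RPKM anteriorly (median 171) and 26.9 to 143 RPKM posteriorly (median 86.8; log2 fold change −1.38, SE 0.23, adjusted p = 0.000362). Ednra, the endothelin receptor of the cranial neural crest, fell from a median of 88.9 to 41.8 RPKM (−1.06, SE 0.23), Calcrl, the adrenomedullin receptor, from 24 to 14.4 RPKM (−0.93, SE 0.17), and Lpar1, a lysophosphatidic acid receptor, from 62.3 to 52.2 RPKM (−0.37, SE 0.08, adjusted p with run in the model 0.264). Ptgfr, the prostaglandin F receptor, rose from 3.45 to 12.5 RPKM (1.68, SE 0.28), and Pth1r, the parathyroid hormone receptor of cartilage and bone, from 17.4 to 28.6 RPKM (0.81, SE 0.17, adjusted p with run in the model 0.377).

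Of 9 tested ion channels and neurotransmitter receptors, 4 were higher anteriorly and 2 posteriorly (66.7%, median −0.15). Gria1, an AMPA glutamate receptor subunit, was at 5.19 to 23.0 RPKM posteriorly (median 12.5) and 1.69 to 6.5 RPKM anteriorly (median 4.11; log2 fold change 1.82, SE 0.22), and Gria3, another subunit, fell from a median of 39.2 to 31.8 RPKM (−0.46, SE 0.10, adjusted p with run in the model 0.385). The gap junction genes were also opposite, Gja1 rising from 11.6 to 19.6 RPKM (0.75, SE 0.16) and Gja5, of arterial endothelium, falling from 22.8 to 2.09 RPKM (−2.46, SE 0.53, adjusted p with run in the model 0.064). Lynx1, which modulates nicotinic receptors, fell from 8.97 to 3.54 RPKM (−1.91, SE 0.45, adjusted p with run in the model 0.0738). Pde5a, the phosphodiesterase that degrades cyclic GMP, was at 9.84 to 35.2 RPKM anteriorly (median 20.1) and 3.78 to 9.25 RPKM posteriorly (median 6.42), without overlap (−1.73, SE 0.13, adjusted p = 5.60e-09). It was the 1 call among 5 tested cyclic GMP genes (median −0.41). Without the 3 posterior libraries 3 of the 5 were called anteriorly, where 277 of all 8608 genes were.

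Matrix genes showed the largest anterior difference of the axis. Hpse2, heparanase 2, a heparan sulphate binding relative of heparanase, was at 7.46 to 31.4 RPKM anteriorly (median 15.9) and at 0 to 0.382 RPKM posteriorly (median 0.192). Its log2 fold change was −5.94 (SE 0.22, adjusted p = 3.28e-15) and was −3.87 with a pseudocount of 1 and −6.87 with 0.01, since posterior levels were those of a few reads. In mm9 the Hpse2 gene spans chr19:42863085-43462801. Of 28 tested proteoglycan and hyaluronan genes, 4 were higher anteriorly and 1 posteriorly (17.9%, median 0.01). Has2, the main hyaluronan synthase of mesenchyme, fell from a median of 55.3 to 30.7 RPKM (−1.0, SE 0.18, adjusted p with run in the model 0.168), and the hyaluronan receptor Cd44 from 24.6 to 12.1 RPKM (−1.14, SE 0.22). Dcn, decorin, was at 31.6 to 280 RPKM anteriorly and 33.0 to 105 RPKM posteriorly (−0.81, SE 0.22), and it lost its call in 12 of 25 fits without 1 library (adjusted p up to 0.0697, without posterior nasal replicate 1) and with run in the model (adjusted p = 0.128). Sulf2, an extracellular sulphatase, rose from 60.8 to 110.0 RPKM (0.67, SE 0.13, adjusted p with run in the model 0.431). Versican (Vcan), at medians of 157 and 142 RPKM, did not pass (−0.17, adjusted p = 0.58).

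Collagens were more often called posteriorly, 5 of 20 tested against 1 anteriorly (30%, median −0.01). Col12a1, a fibril-associated collagen of tendon and periosteum, was at 41.7 to 180 RPKM posteriorly (median 101) and 15.8 to 70.5 RPKM anteriorly (median 34.9; log2 fold change 1.67, SE 0.24). Col24a1, a fibrillar collagen of bone, was at 4.68 to 35.3 RPKM posteriorly and 3.56 to 11.1 RPKM anteriorly, with overlap (log2 fold change 1.24, SE 0.21, adjusted p with run in the model 0.0995). Col8a1, a network collagen, rose from a median of 46.3 to 81.7 RPKM (0.89, SE 0.20, adjusted p with run in the model 0.241). Col25a1 lay at the threshold (1.11, adjusted p = 0.050) and lost its call in 19 of 25 fits without 1 library (adjusted p up to 0.0942, without posterior lateral replicate 3) and with run in the model (adjusted p = 0.301). Col14a1, like Col12a1 a fibril-associated collagen, went the other way, from 17.8 to 57.4 RPKM anteriorly (median 38.1) to 0.304 to 18.8 RPKM posteriorly (median 5.57; −3.04, SE 0.32, adjusted p = 1.00e-06). The main interstitial collagen Col3a1 was at medians of 152 and 111 RPKM and did not pass (−0.26, adjusted p = 0.375).

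Of 30 tested matricellular and elastic fibre genes, 4 were higher anteriorly and 3 posteriorly (23.3%, median −0.01). Fndc1, a fibronectin type III domain protein, was at 16.7 to 63.7 RPKM posteriorly (median 25.6) and 3.56 to 10.9 RPKM anteriorly (median 7.98), without overlap (log2 fold change 1.96, SE 0.23, adjusted p = 3.56e-06). Eln, elastin, fell from a median of 77.9 to 35.2 RPKM (−1.05, SE 0.17), Nid1, nidogen of basement membranes, from 84.9 to 60.7 RPKM (−0.49, SE 0.08), Ptx3, a pentraxin of hyaluronan matrix, from 25.9 to 10.2 RPKM (−1.79, SE 0.27), and Fn1, fibronectin, from 158 to 120 RPKM (−0.34, SE 0.08, adjusted p with run in the model 0.183). Tnn and Emilin1 were called posteriorly (1.09 and 0.67) but lost their calls in 6 and 11 of 25 fits without 1 library, with adjusted p of up to 0.0589 without posterior lateral replicate 3 and 0.0774 without posterior nasal replicate 1, and with run in the model they had adjusted p = 0.199 and 0.484. Of 13 tested matrix proteases (15.4% called, against 4.09% of all genes, median 0.04), Adamts17 rose from 11.8 to 22.2 RPKM (1.37, SE 0.30). Adam19 fell from 32.5 to 25.4 RPKM (−0.45, SE 0.11, adjusted p with run in the model 0.132).

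Cartilage and bone genes were called mostly posteriorly. Of 10 tested cartilage genes, 3 were higher posteriorly and 0 anteriorly (30%), with a median log2 fold change of 0.49, where the median over all genes was 0.031. Col2a1, the fibrillar collagen of cartilage, was at 19.1 to 51.4 RPKM posteriorly (median 29.0) and 4.45 to 25.7 RPKM anteriorly (median 13.3; 1.24, SE 0.22, adjusted p with run in the model 0.191). Col9a3, of collagen IX, rose from a median of 7.34 to 20.1 RPKM (1.15, SE 0.29), and Sox5, a partner of Sox9, from 7.79 to 14.9 RPKM (0.93, SE 0.25). Sox5 lost its call in 13 of 25 fits without 1 library (adjusted p up to 0.067, without anterior lateral replicate 2) and with run in the model (adjusted p = 0.133). Of 13 tested osteoblast and mineral genes, 3 were higher posteriorly and 1 anteriorly (30.8%, median 0.48). Ptprv, a phosphatase of osteoblasts, rose from 2.96 to 16.1 RPKM (2.03, SE 0.42, adjusted p with run in the model 0.299). Col1a1, the main collagen of bone and fibrous tissue, rose from 142 to 204 RPKM (0.48, SE 0.12, adjusted p with run in the model 0.404), and was not called when libraries were centred or quantile normalized. Runx2, the master regulator of osteoblasts, rose from 30.2 to 47.4 RPKM (0.90, SE 0.25, adjusted p = 0.0382) but lost its call in 18 of 25 fits without 1 library (adjusted p up to 0.0769, without posterior lateral replicate 3) and with run in the model (adjusted p = 0.192). Enpp1, which makes the mineralisation inhibitor pyrophosphate, fell from 6.88 to 2.40 RPKM (−1.91, SE 0.46, adjusted p with run in the model 0.0857). Sp7 (1.64), Alpl (0.50) and Ibsp (0.82) did not pass, with adjusted p = 0.20, 0.312 and 0.744. The part that the number of chondrocytes or osteoblasts in a section had in these differences was not tested. Of 4 tested tendon and fibroblast genes (median 0.26), Mkx, a tendon homeobox factor, rose from 16.9 to 30.7 RPKM (1.02, SE 0.22, adjusted p with run in the model 0.193).

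**Figure D5:**
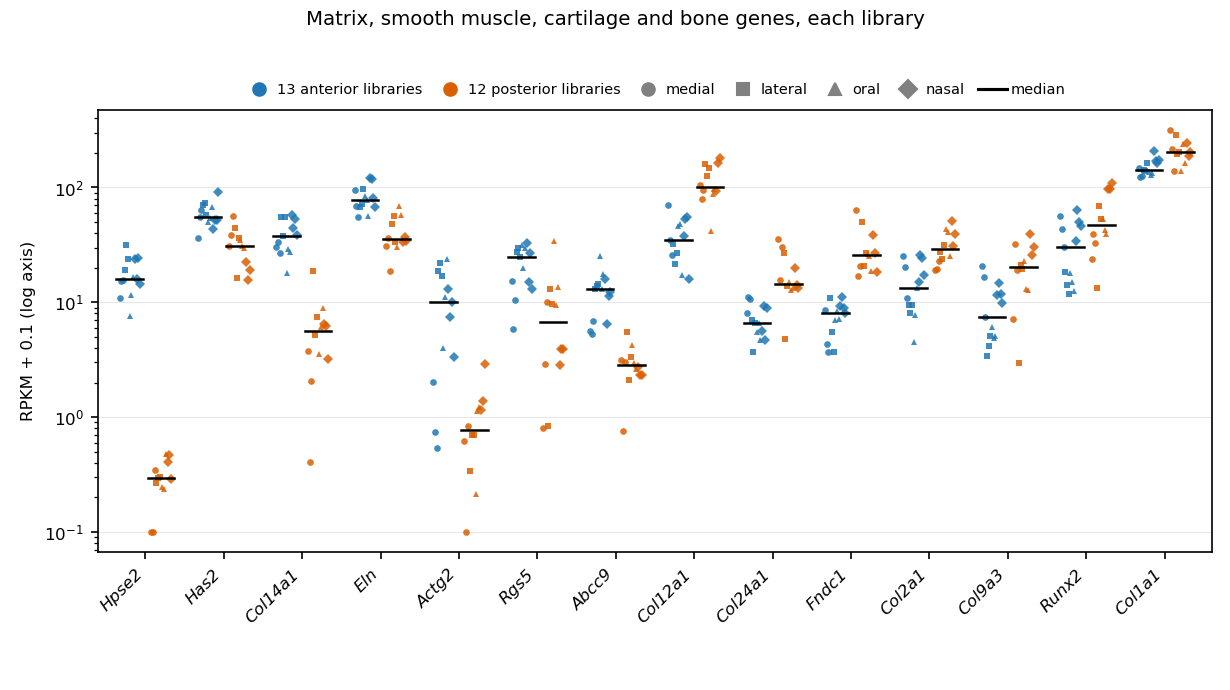
RPKM + 0.1 on a log axis for 14 matrix, smooth muscle, cartilage and bone genes in each library, with anterior libraries in blue, posterior libraries in orange, marker shape for the compartment and a black bar for the median. Hpse2 and Fndc1 do not overlap between the ends, and the bars of Col1a1 lie at 142 and 204 RPKM with wide overlap.

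Vessel wall genes were called anteriorly. Of 10 tested smooth muscle and pericyte markers, 4 were higher anteriorly and 0 posteriorly (40%), with a median of −0.80. Actg2, smooth muscle gamma actin, was at 0.435 to 23.7 RPKM anteriorly (median 9.99) and 0 to 2.81 RPKM posteriorly (median 0.668; log2 fold change −3.11, SE 0.48). Abcc9, the sulphonylurea receptor of pericytes, fell from a median of 12.9 to 2.74 RPKM (−2.08, SE 0.21, adjusted p = 6.88e-07), Synpo2, an actin-bundling protein, from 13.4 to 3.16 RPKM (−2.28, SE 0.47), and Rgs5, a pericyte G protein regulator, from 24.7 to 6.62 RPKM (−1.91, SE 0.41, adjusted p with run in the model 0.412). Acta2 (−0.74) and Tagln (−0.87) did not pass, with adjusted p = 0.206 and 0.0644. The summed markers of this cell type given above include Actg2, Abcc9 and Rgs5 and are no separate measure, and the share of vessel wall cells in each section was not tested. Endothelial markers gave 2 calls anteriorly (Gja5 and Darc) and 1 posteriorly among 21 tested (median −0.19). The posterior one was Lyve1, of lymphatic endothelium and some macrophages, at medians of 7.81 and 15.7 RPKM (1.44, SE 0.39), which lost its call in 8 of 25 fits without 1 library (adjusted p up to 0.061, without anterior medial replicate 2).

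Other cell types gave few calls. None of 6 red cell genes (median 0.49), 13 macrophage and mast cell genes (0.36), 5 epithelial genes (−0.54) or 2 skeletal muscle genes (0.21) was called. Without the 3 posterior libraries 2 of the 6 red cell genes were called, both higher posteriorly, where 411 of all 8608 genes were. Of 5 tested neuron and Schwann genes (median −0.16), Gap43, of growing axons, fell from a median of 67.2 to 36.1 RPKM (−1.08, SE 0.21). Pcp4, a calmodulin regulator found in neurons and some mesenchyme, had the highest posterior fold of all genes, from 0 to 6.59 RPKM anteriorly (median 0.26) to 0 to 140.0 RPKM posteriorly (median 43.1). Its log2 fold change was 6.10 (SE 0.98, adjusted p = 0.000276), the ends overlapped, and the call was lost with run in the model (adjusted p = 0.292).

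Among lists of general cell function, none of 35 cell cycle genes (median 0.08), 45 ribosomal protein genes (0.15) or 37 oxidative phosphorylation genes (0.13) was called, nor any of 4 sex-linked genes (0.33). Without the 3 posterior libraries 2 of the 35 cell cycle genes were called, both higher posteriorly, where 411 of all 8608 genes were. Mki67, of dividing cells, was at medians of 88.2 and 83.4 RPKM (−0.08, adjusted p = 0.88). Of 16 glycolysis and hypoxia genes, 2 were higher posteriorly (12.5%, against 4.09% of all genes, median 0.30), the collagen prolyl hydroxylase subunits P4ha1 (0.66, SE 0.18) and P4ha2 (0.77, SE 0.19, adjusted p with run in the model 0.264), of which P4ha1 lost its call in 14 of 25 fits without 1 library (adjusted p up to 0.0832, without posterior nasal replicate 3). Without the 3 posterior libraries, 9 of these 16 genes were called, each of them higher posteriorly, where 411 of all 8608 genes were. Of 11 immediate early and stress genes (18.2% called, median 0.04), Jun was called anteriorly (−0.87) and Myc posteriorly (0.70), and they lost the call in 11 and 8 of 25 fits without 1 library (adjusted p up to 0.0659 without posterior nasal replicate 3 and 0.0621 without posterior nasal replicate 1) and with run in the model (adjusted p = 0.0968 and 0.577). Of 20 imprinted growth genes (10% called, median −0.04), Dio3 was called anteriorly and Dlk1 posteriorly (medians 26.2 and 50.6 RPKM, log2 fold change 0.75, SE 0.19, adjusted p with run in the model 0.0502). Igf2 and H19, the most abundant of these, did not pass (−0.03 and 0.22, adjusted p = 0.941 and 0.493).

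Among the genes without overlap were 4 of little described function. 9130206I24Rik was at 3.38 to 25.2 RPKM anteriorly and 0.635 to 2.59 RPKM posteriorly (log2 fold change −3.52, SE 0.24, adjusted p = 1.02e-09), and 5430421F17Rik at 6.22 to 32.5 RPKM and 0 to 4.42 RPKM (−2.67, SE 0.36). Zmat4, a zinc finger gene, was at 5.01 to 23.2 RPKM anteriorly and 0 to 4.40 RPKM posteriorly (−2.98, SE 0.46). Tpd52l1, a coiled-coil protein of the tumour protein D52 family, was at 8.76 to 70.4 RPKM posteriorly and 3.14 to 8.12 RPKM anteriorly (1.39, SE 0.24). In each of these 4 genes every library of one end was above every library of the other. None had a library of the lower end at 10 RPKM. They are thus among the 68 genes tested through 1 end, and their separation was in part set by that filter.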

How the data were processed

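RNA of 25 laser capture samples was amplified (NuGEN Ovation) and tagmented (Nextera). The authors deposited RPKM values, made in GeneSpring after removal of duplicate and multiply aligned reads. The submitters' processing notes name TopHat and mm9. Labels gave the groups, and alignment names in headings of supplementary tables the runs. The check of replicate numbers did not settle whether samples with the same number are paired.

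From the deposited RPKM, log2(RPKM + 0.1) was fitted in limma 3.58.1 (R 4.3.3) on compartment and axis, with Benjamini-Hochberg adjustment over the genes at 10 RPKM in 6 libraries. An interaction and separate fits for the 2 dissections used the same genes. Tables used Python 3.11.15, numpy 2.4.6, pandas 2.3.3 and matplotlib 3.10.9. The fit was tested on simulated data.

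The 45 function lists matched 1129 of 1137 symbols. Members and lists were chosen with earlier results of these data known. Named genes were up to 4 called members per list and direction, the 10 largest non-overlapping changes per direction, homeobox genes over 2-fold and up to 3 interaction genes per direction; list members that were not called are given with their values. Alternatives changed the pseudocount, scaling, variance model, covariates, run, filter and libraries. Results on some genes are not reported here.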

Additional observations from a re-analysis of the deposited data

Results flagged for a closer look

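The axis differed between compartments for 12 of the called genes, by limma's interaction test with adjustment over all 8608 genes, and 11 of them are given here. The separate log2 fold changes below are posterior minus anterior within the medial, lateral, oral and nasal compartments in that order. Wif1, the Wnt inhibitor, had values of −3.86, −2.08, −1.73 and 0.77 (adjusted p = 0.00237), with the nasal compartment of opposite sign. Ptprv, of osteoblasts, had values of −1.01, 3.02, 2.82 and 3.11 (adjusted p = 0.00687), with the medial compartment of opposite sign. Pax3 was lower posteriorly in each compartment, by values of −1.67, −3.16, −3.82 and −1.70 (adjusted p = 0.00687).

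Medial tissue held the largest differences of several posterior genes. Bmp3 had values of 4.57, 0.83, 0.69 and 1.05 (adjusted p = 0.0375), Adamts17 3.37, 1.25, 0.88 and 0.16 (adjusted p = 0.0172), Tbx22 4.64, 2.06, 3.46 and 1.75 (adjusted p = 0.0416), Flrt2 2.29, 1.67, 1.40 and 0.42 (adjusted p = 0.0095), and Meox2 4.6, 4.28, 3.76 and 1.82 (adjusted p = 0.0351). Ntrk3 had values of −5.0, −1.08, −1.18 and −1.22 (adjusted p = 0.0351). Slit2 had values of −0.35, −2.58, −1.73 and −1.59 (adjusted p = 0.0173). AW551984, a gene of little described function, had values of −0.03, −1.10, −1.10 and −3.25 (adjusted p = 0.0138), and its axis call was lost with run in the model (adjusted p = 0.124). With run in the model 1 gene was called for the interaction in place of 27, and fits without 1 library called 10 to 37. The count was 11, 10 and 12 without anterior medial replicate 1, 2 or 3, 14 without anterior lateral replicate 2 or 3, 15 and 16 without posterior oral replicate 2 or 3, and 14 without posterior nasal replicate 1 or 3.

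A single library lay far from the other 3 of the anterior nasal group, the one group of 4, in 7 of 118 named genes, where chance gives about 1 in 20. They were Bmp3 at 22.9 RPKM and Gria1 at 2.1 RPKM in anterior nasal replicate 1, Pdgfc at 3.8 RPKM in replicate 3, and Cdh11 at 140.0 RPKM, Cxcl12 at 32.9 RPKM, Lrrtm1 at 5.78 RPKM and Meox2 at 5.55 RPKM in replicate 4.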

How the results depend on the processing

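Of 118 named genes, 100 were called in every fit that left out 1 library, and 0 changed sign under the alternatives run. The 118 were chosen by their calls on the same libraries that these fits reuse, so both counts are largely set by that choice. The count of 352 calls moved most with weights per library (1206), run in the model (155), the 3 shared runs alone (101), means of the 8 compartments (26), no filter on low values (584), a minimum of 5 RPKM in 3 libraries (548), without the lateral libraries (166) or the nasal libraries (159), and without the 3 posterior libraries (688). Fits without 1 library called 276 to 532, with 532 reached without posterior medial replicate 2. The cause was not tested. For the interaction, run in the model left 1 of 27 calls and fits without 1 library gave 10 to 37. The overlap of the 2 dissections, 46, ranged from 27 to 73. Other scalings, pseudocounts and variance models stayed within 1.5 times the count, although centring moved the split to 140 higher posteriorly and 229 higher anteriorly.

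With the replicate number as a block, 269 genes were called, 136 higher posteriorly and 133 higher anteriorly. Of 12 pairs of libraries with the same number in the same compartment, 6 had deviations that correlated above 0.1 (−0.524 to 0.409, median 0.0975). Pairs with different numbers reached from −0.471 (anterior oral 2 and posterior oral 1) to 0.347 (anterior oral 1 and posterior oral 3). These spreads overlap, so the check cannot decide whether samples with the same number are paired. Depth limited low values, since 1 read on a transcript of 2000 bases was worth up to 0.305 RPKM. Run and axis cannot be told apart in the 5 runs that held 1 end.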

Other observations

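Genes that process collagen were among the calls outside the lists, and were picked after their values were seen. Pcolce, the enhancer of procollagen C-proteinase, was at 83.3 to 158 RPKM posteriorly (median 117) and 30.3 to 94.2 RPKM anteriorly (median 58.2), with a log2 fold change of 1.03 (SE 0.11, adjusted p = 2.23e-06 by limma). Adamts3, which removes the procollagen N-propeptide, rose from a median of 5.75 to 11.3 RPKM (0.93, SE 0.17). Crtap, of the prolyl 3-hydroxylase complex, rose from 44.4 to 67.0 RPKM (0.53, SE 0.14), Ppic, cyclophilin C, from 102 to 144 RPKM (0.49, SE 0.12), and Cthrc1, a secreted collagen triple helix repeat protein, from 8.97 to 22.0 RPKM (1.26, SE 0.26). With run in the model, Pcolce, Crtap and Ppic were called (adjusted p = 0.0118, 0.0151 and 0.0126), and Adamts3 and Cthrc1 were not (adjusted p = 0.255 and 0.128).

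Cytokines and receptors of the CNTF and LIF family, also picked after their values were seen, were called at both ends. Il11ra1, the interleukin 11 receptor, rose from a median of 20.2 to 32.6 RPKM posteriorly (log2 fold change 0.75, SE 0.14), as did Cntfr, described above. Lifr, the LIF receptor, fell from 18.1 to 11.4 RPKM (−0.79, SE 0.11), and Clcf1, a cytokine of this family, fell from 25.8 to 18.0 RPKM (−0.79, SE 0.21). Of these, Cntfr and Clcf1 were not called with run in the model (adjusted p = 0.252 and 0.332). The planar polarity genes Prickle1 and Prickle2 had opposite signs, 0.68 (SE 0.19) and −0.99 (SE 0.20), and Prickle1 was not called with run in the model (adjusted p = 0.131).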
